A study of Mus musculus with 2 samples.

Results

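C-type lectin receptors are surface proteins through which dendritic cells recognise sugars, lipids and dead cells. They were taken here as every gene symbol that begins with Clec and a digit or with Cd209 and a letter. Of 23238 symbols in the data, 39 met this rule, and the 18 of them with 50 or more reads in at least 1 of the 2 libraries are described one by one. The treated culture was exposed to UNE-C1, a domain of cysteinyl-tRNA synthetase known as a ligand of Toll-like receptors 2 and 6, at 100 nM for 24 h. It was set against a control culture, of which the labels do not say what it received. Both were bone marrow-derived dendritic cells of female C57BL/6 mice aged 7 weeks, grown in medium with 10% serum and 20 ng/ml GM-CSF, a growth factor given again on day 3. Loosely attached and floating cells were taken on day 6 as immature dendritic cells. How many mice stand behind each culture is not stated in the labels.

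Receptors of this family differ in how they signal. Some carry a short tyrosine motif in their own tail that recruits the kinase Syk (Dectin-1, CLEC-2, DNGR-1). Others borrow such a motif from the adaptors FcRγ or DAP12 (Mincle, MCL, Dectin-2, MDL-1), and inhibitory members recruit phosphatases through an ITIM motif. Downstream of Syk, CARD9, BCL10 and MALT1 lead to NF-κB. Most of the genes lie on mouse chromosome 6 in a pair of clusters, one around Dectin-2 and one around Dectin-1.

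The UNE-C1 library held 15975821 reads and the control library 14857198. Since each group is a single library, replicate error is unknown and no test was possible: all differences below are between 2 libraries, and every interval is a 95% interval for counting error only. Levels are CPM, read counts relative to library size scaled by TMM. A log2 fold change is the difference of log2(CPM + 1) between the UNE-C1 library and the control, and a gene was counted as higher or lower at 2-fold on that scale. Ratios given as "-fold" are plain CPM ratios. Conventional dendritic cell markers were present in both libraries, among them Cd74 with 41150 reads in the UNE-C1 library and 48646 in the control, and Itgax, which encodes CD11c, with 3493 UNE-C1 and 12693 control reads. Some markers of that list had few reads: Zbtb46 had 62 in each library, Flt3 62 UNE-C1 and 143 control, and Itgae 8 UNE-C1 and 20 control. In such bulk samples, fewer cells of a type and less RNA per cell cannot be told apart.

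To show the DNA at the starts of the genes that the results turn on, RefSeq promoters (GRCm38.p6, 250 bases before the start and the first 50 after it) are printed for 4 of them. Mincle (Clec4e) was the 1 member counted as higher, MCL (Clec4d) is its neighbour and partner, Clec4b1 was, with Clec1a, one of the 2 members with the lowest log2 fold changes, and Dectin-1 (Clec7a) had the largest deficit of reads. The regions are chr6:123289822-123290121 on the minus strand for Clec4e, chr6:123261857-123262156 on the plus strand for Clec4d, chr6:123049712-123050011 on the plus strand for Clec4b1 and chr6:129472730-129473029 on the minus strand for Clec7a. Capitals mark every match to any of 6 motifs searched on both strands.
Clec4e: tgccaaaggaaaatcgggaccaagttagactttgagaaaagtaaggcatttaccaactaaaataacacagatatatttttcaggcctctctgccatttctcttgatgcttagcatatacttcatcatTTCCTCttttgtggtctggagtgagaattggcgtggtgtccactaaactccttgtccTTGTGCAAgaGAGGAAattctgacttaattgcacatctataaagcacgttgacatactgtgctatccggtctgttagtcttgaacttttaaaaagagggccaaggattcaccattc
Clec4d: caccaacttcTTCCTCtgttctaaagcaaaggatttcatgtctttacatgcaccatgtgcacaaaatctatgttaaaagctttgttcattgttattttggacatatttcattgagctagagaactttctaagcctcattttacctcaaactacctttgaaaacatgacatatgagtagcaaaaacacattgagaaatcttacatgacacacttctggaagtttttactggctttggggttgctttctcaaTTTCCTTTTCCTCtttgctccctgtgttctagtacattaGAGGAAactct
Clec4b1: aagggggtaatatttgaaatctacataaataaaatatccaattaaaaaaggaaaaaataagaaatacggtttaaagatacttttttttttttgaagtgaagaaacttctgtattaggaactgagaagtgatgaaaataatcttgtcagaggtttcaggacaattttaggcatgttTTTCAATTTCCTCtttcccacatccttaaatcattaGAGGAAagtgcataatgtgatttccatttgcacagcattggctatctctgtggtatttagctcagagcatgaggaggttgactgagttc
Clec7a: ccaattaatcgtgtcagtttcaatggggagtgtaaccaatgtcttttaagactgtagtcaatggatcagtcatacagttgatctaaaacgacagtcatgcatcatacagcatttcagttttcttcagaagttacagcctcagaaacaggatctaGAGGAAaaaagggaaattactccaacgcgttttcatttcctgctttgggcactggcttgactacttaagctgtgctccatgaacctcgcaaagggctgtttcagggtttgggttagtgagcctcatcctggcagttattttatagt
The motifs were GAAANNGAAA (the interferon-stimulated response element, ISRE), TTCNNNGAA (GAS, for STAT factors), TTGCNNAA (C/EBP), GGGNNNNNCC (NF-κB, in a loose form), TGANTCA (AP-1) and GAGGAA (PU.1), where N is any base. Counted with the start as position 1 and no position 0, Clec4e held a C/EBP match from -66 to -59 and PU.1 matches at -123 and -56. Clec4b1 held an ISRE match from -75 to -66 that overlaps a PU.1 match from -68 to -63, with a further PU.1 match at -39. In Clec4d an ISRE match from 1 to 10 overlaps a PU.1 match from 8 to 13, and 2 more PU.1 matches start at -240 and 40. Clec7a held a single PU.1 match at -96.

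The table of promoters matched 14 of the 18 members described. Of these 14, 9 held the PU.1 letters, which 28.3% of all 32851 promoters in the table hold, and 4 held the C/EBP letters (10.8% of all). The ISRE letters were in 3, namely Clec2d, Clec4b1 and Clec4d (3.44% of all), which had log2 fold changes of 0.45, -3.80 and 0.50. The AP-1 and NF-κB letters were each in 2 members (7.81% and 50.8% of all promoters) and the GAS letters in 1, Clec4a2 (8.30%). These are letter matches in a short window and are given as a description.

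Of the 18 members, 8 were lower in the UNE-C1 library by 2-fold or more and 1 was higher. Over all 10469 genes with as many reads, 9.42% were lower by 2-fold or more and 9.31% were higher. The shares of the 18 members were 5.56% higher and 44.4% lower, and their median log2 fold change was -0.78, against -0.0047 over all those genes. All 18 also had a mean of 50 or more reads over both libraries, and 16 had 50 or more in each. Scaling by total reads in place of TMM moved the median of all genes to -0.33 and the share of higher genes among all those called from 49.7% to 28.0%. Under it the members' counts were 1 higher and 9 lower, with Clec12a added. Over all 10469 genes it gave 657 higher and 1693 lower, where TMM gave 975 and 986. Just inside the 2-fold line lay Clec4a4 (log2 fold change -1.43) and just outside it Clec12a (-0.94). The floor cut through a gap: the lowest members past it, Clec2d and Clec16a, reached 163 reads (UNE-C1) and 136 reads (control) in their higher library, and the highest member under it, Clec2l, reached 15.

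**Figure D1:**
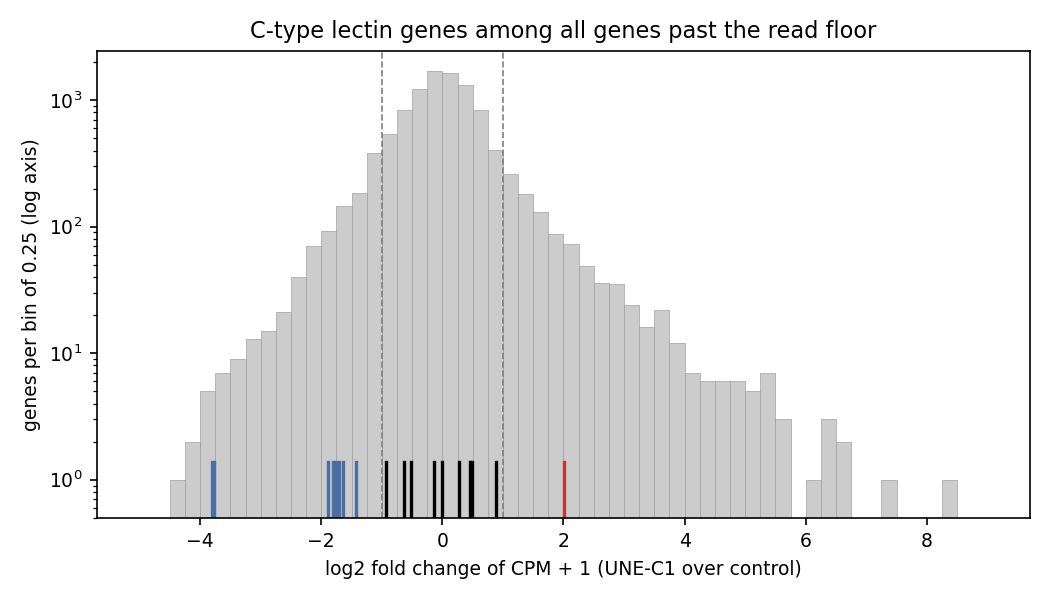
Grey bars count all genes with 50 or more reads in either library (log axis) by log2 fold change, UNE-C1 over control, and short lines mark the 18 C-type lectin genes (red at least 2-fold higher, blue at least 2-fold lower, black neither). The 8 blue lines lie between -3.80 and -1.43, and the 1 red line, Clec4e, lies at 2.02.

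Receptors with their own Syk-recruiting tail were lower, all 3 of them by 2-fold or more, against 9.42% of all genes. Clec7a, which encodes Dectin-1, the receptor for fungal β-glucans, had 387 CPM in the UNE-C1 library and 1267 CPM in the control (5491 UNE-C1 and 21206 control reads; 3.27-fold lower, interval 3.18 to 3.37). It is annotated in GENCODE M21 as a polymorphic pseudogene (ENSMUSG00000079293.11, chromosome 6, 129461591 to 129472779). By read number it ranked 429 among all symbols in the UNE-C1 library and 60 in the control. Clec1b, which encodes CLEC-2, the podoplanin receptor best known from platelets, had 51 reads in the UNE-C1 library and 269 in the control (4.47-fold lower, 3.30 to 6.16). Clec9a, which encodes DNGR-1, a receptor for actin exposed by dead cells that marks type 1 conventional dendritic cells, had 34 UNE-C1 and 175 control reads (4.36-fold lower, 3.01 to 6.50). It was past the read floor through the control library alone. Clec1b and Clec9a overlap by 184 exonic bases on the same strand, so some reads of these 2 genes could have been assigned to either.

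Markers of cells known to carry these receptors did not all run the same way. They were counted beside 9.31% of all genes higher and 9.42% lower. Of 12 neutrophil markers, 11 were lower by 2-fold or more, and the summed level of the 12 was 3214 CPM in the UNE-C1 library and 8327 CPM in the control. Among these 11, Elane, Mpo and Cxcr2 were past the read floor through the control library alone. Neutrophils are known to carry Clec4d, Clec4e, Clec7a, Clec5a and Clec12a. Of the 12 measured conventional dendritic cell markers, 2 were higher, 1 was lower and 9 were neither, with 8 of the 12 below 0 (11803 UNE-C1 and 12383 control CPM in sum). The 2 higher ones were Xcr1 (189 UNE-C1 and 54 control reads; 4.13-fold higher, 3.04 to 5.70) and Irf8 (2.50-fold higher), and the lower one was Itgax. On the log2 scale Flt3 was at -0.83, Batf3 at -0.24 and Cd24a at -0.07, and Itgae was under the floor with 8 UNE-C1 and 20 control reads. Of the 5 measured megakaryocyte and platelet markers, 2 were at least 2-fold lower and none higher, and the list's summed level was 175 CPM in the UNE-C1 library against 380 CPM in the control. The part of these cells in the values of the receptors above and below was not tested.

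Receptors that signal through FcRγ or DAP12 were split. Clec4e, which encodes Mincle, the receptor for mycobacterial cord factor and for SAP130 from dying cells, had 626 CPM in the UNE-C1 library and 154 CPM in the control (8874 UNE-C1 and 2575 control reads; 4.07-fold higher, 3.89 to 4.25). It lies on chromosome 6 from 123281789 to 123289870 on the minus strand (ENSMUSG00000030142.10). Of the 10469 genes, 307 had a higher log2 fold change. Clec4d, which encodes MCL, the receptor that forms a complex with Mincle, had 455 CPM in the UNE-C1 library and 323 CPM in the control (1.41-fold higher, 1.36 to 1.46). The 2 partners thus stood in a different proportion: there were 1.37 Clec4e reads per Clec4d read in the UNE-C1 library (1.33 to 1.42) and 0.477 in the control (0.455 to 0.50), a ratio that library scaling does not touch.

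Clec4n, which encodes Dectin-2, the receptor for fungal mannans, gave the most reads of the family in both libraries, 40538 in the UNE-C1 library and 39752 in the control, and ranked 31 among all symbols in the UNE-C1 library and 28 in the control. Its level was 2858 CPM in the UNE-C1 library and 2376 CPM in the control (1.20-fold higher, 1.19 to 1.22), but its log2 fold change of 0.27 turned to -0.08 with total read counts. Clec4b1 encodes DCAR, a receptor for mycobacterial phosphatidylinositol mannosides that pairs with FcRγ. It had 69 reads in the UNE-C1 library and 1349 in the control (4.86 UNE-C1 and 80.6 control CPM; 16.6-fold lower, 13.0 to 21.4), and 4 of the 10469 genes had a lower log2 fold change. Clec5a, which encodes the DAP12-coupled receptor MDL-1, had 363 reads in the UNE-C1 library and 1536 in the control (3.59-fold lower, 3.20 to 4.03). Summed over the 6 genes of this group, Clec4b2 under the floor included, the level was 3969 CPM in the UNE-C1 library and 3025 CPM in the control. In reads the sum was 56305 UNE-C1 and 50616 control. Most of it was Clec4n, so the difference in CPM depends on the library scaling.

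**Figure D2:**
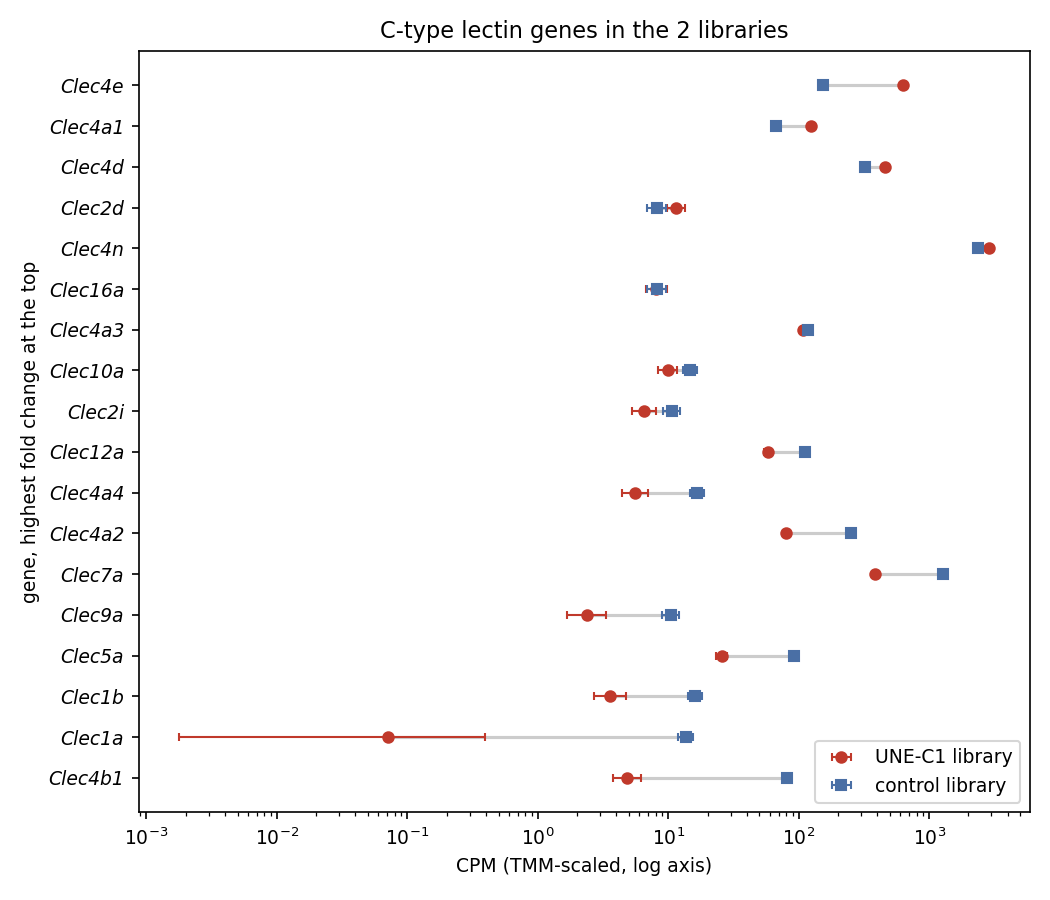
Points give the CPM of each of the 18 members (log axis; circles UNE-C1, squares control) with exact Poisson intervals for counting error, 1 library per group. Clec4e stands to the right of its control value (626 against 154 CPM), while Clec4b1 and Clec1a at the bottom lie furthest to the left of theirs.

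Of the 5 inhibitory and DCIR-family genes past the floor, 2 were lower (40%, against 9.42% of all genes) and none higher (against 9.31%). Clec4a2, which encodes DCIR, an ITIM-bearing receptor that restrains dendritic cells, had 79.7 CPM in the UNE-C1 library and 250 CPM in the control (1130 UNE-C1 and 4179 control reads; 3.14-fold lower, 2.94 to 3.35). Clec4a4, which encodes DCIR2, the 33D1 antigen of type 2 conventional dendritic cells, had 79 UNE-C1 and 279 control reads (2.99-fold lower, 2.32 to 3.89). Clec12a, which encodes MICL, an ITIM-bearing receptor for uric acid crystals, had 57.7 CPM in the UNE-C1 library and 111 CPM in the control (1.93-fold lower, 1.78 to 2.10). It was not counted as lower, but passed 2-fold with total read counts, at a log2 fold change of -1.27.

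The other DCIR paralogues gave different values. Clec4a3 had 107 CPM in the UNE-C1 library and 118 CPM in the control (1.10-fold lower, 1.03 to 1.17). Clec4a1 had 124 UNE-C1 and 66.8 control CPM (1754 UNE-C1 and 1118 control reads; 1.85-fold higher, 1.72 to 1.997). There were 1.55 Clec4a1 reads per Clec4a2 read in the UNE-C1 library (1.44 to 1.67), against 0.268 in the control (0.2502 to 0.286). Parts of the 3′ ends of Clec4a2 and Clec4b1 also occur in transcripts of related genes, searched over their whole length. Of 1886 distinct 50-base words in the last 500 bases of annotated Clec4a2 transcripts, 169 also occur in Clec4a4 or Clec4b1 transcripts. Those found in Clec4a4 lie outside its own last 500 bases. Of 527 such words of Clec4b1, 68 occur in Clec4a2. No such word of Clec4a1, Clec4a3, Clec4a4, Clec4d, Clec4e or Clec7a occurs in another gene, and reads of the sharing genes could have been split between them.

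Clec1a, which encodes MelLec, a receptor for fungal melanin, had 1 read in the UNE-C1 library and 227 in the control. The ratio of 192-fold lower has an interval of 34.2 to 7633, and 6 of the 10469 genes had a lower log2 fold change. Like Clec9a, it was past the floor through the control library alone. Clec10a, which encodes the galactose receptor MGL1, had 141 reads in the UNE-C1 library and 246 in the control (1.48-fold lower, 1.20 to 1.83). Its close copy Mgl2 had 2986 UNE-C1 and 1099 control reads (3.21-fold higher, 2.99 to 3.44), although 270 of 1961 words at the 3′ ends of Clec10a transcripts also occur in Mgl2.

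Neither measured ligand of natural killer cell receptors was counted at 2-fold. Clec2d, which encodes Clr-b, a ligand of inhibitory NKR-P1 receptors, had 163 reads in the UNE-C1 library and 136 in the control (1.41-fold higher, 1.12 to 1.79). Clec2i, which encodes Clr-g, had 93 UNE-C1 and 179 control reads (1.63-fold lower, 1.26 to 2.12). Clec16a shares the family name but is an intracellular protein of endosomes and mitophagy, not a receptor. It had 115 reads in the UNE-C1 library and 136 in the control, a ratio of 0.998 (0.771 to 1.29).

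The remaining 21 members were under the floor. Of these, 12 had no read in either library and 9 had a few. Clec2l had 15 reads in each library. Cd209d had 6 reads in the UNE-C1 library and 3 in the control, and Clec11a, a secreted growth factor, had 0 UNE-C1 and 8 control reads. Of the 7 Cd209 genes, mouse relatives of human DC-SIGN, 5 were at 0 in both libraries, Cd209a among them; taken to allow 3 reads, a count of 0 allows up to 0.211 CPM in the UNE-C1 library and 0.179 CPM in the control. The 7 genes had 8 reads in the UNE-C1 library and 3 in the control.

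As a whole the family had 67727 reads in the UNE-C1 library (0.424% of all reads, 0.421% to 0.427%) and 82636 in the control (0.556%, 0.552% to 0.560%). On the TMM scale its summed level was 4775 CPM in the UNE-C1 library and 4938 CPM in the control. Its make-up differed more than its sum. Clec4n gave 59.9% of the family's reads in the UNE-C1 library (59.5% to 60.2%) and 48.1% in the control (47.8% to 48.4%). Clec7a gave 8.11% in the UNE-C1 library (7.90% to 8.32%) and 25.7% in the control (25.4% to 26.0%). Clec4e gave 13.1% in the UNE-C1 library (12.8% to 13.4%) and 3.12% in the control (3.00% to 3.24%). The 3 genes with most reads, Clec4n, Clec4e and Clec4d in the UNE-C1 library and Clec4n, Clec7a and Clec4d in the control, gave 82.5% in the UNE-C1 library and 80.3% in the control. These are shares of 3′-end reads, which are not divided by transcript length, and they do not depend on library scaling. Binomial intervals here are Clopper-Pearson intervals.

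**Figure D3:**
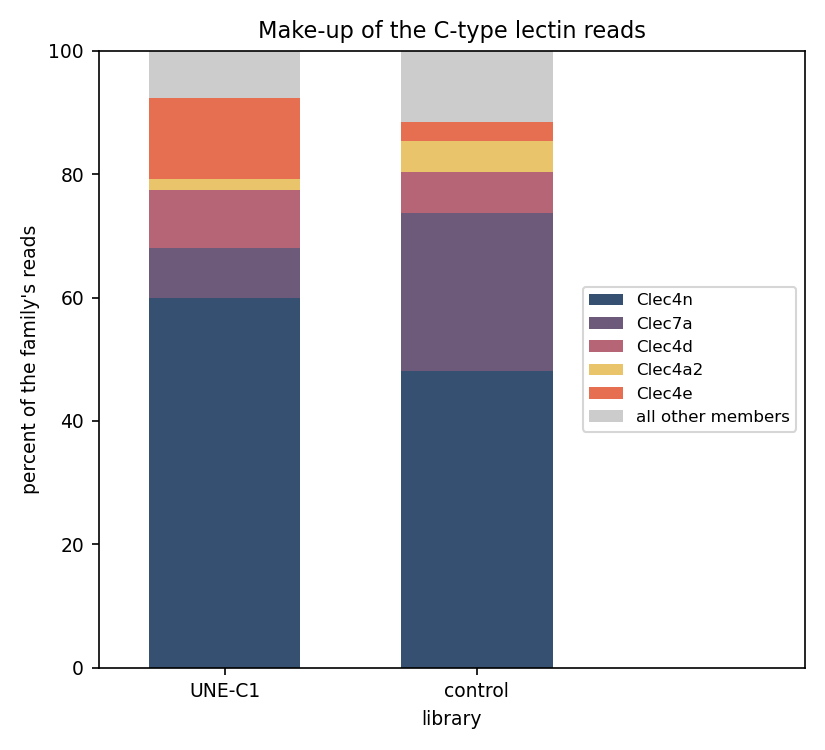
Stacked bars give the percent of all C-type lectin reads taken by 5 genes and by all other members together, UNE-C1 library on the left and control on the right. The Clec4e part is 13.1% in the UNE-C1 library against 3.12% in the control, and the Clec7a part 8.11% against 25.7%.

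Of the 39 members, 21 lie in 2 clusters on chromosome 6. The first, from Clec4a1 to Clec4e (122921848 to 123289870, 368 kb), holds 9 members. Of its 8 past the floor, 1 was higher (12.5%, against 9.31% of all genes) and 3 were lower (37.5%, against 9.42%). Its 3 last genes, Clec4n, Clec4d and Clec4e, span 60.03 kb and all had log2 fold changes above 0, of 0.27, 0.50 and 2.02, Clec4n turning below 0 with total read counts. The 3 lower genes, Clec4a4, Clec4b1 and Clec4a2, lie before them and stood at -1.43, -3.80 and -1.64. The second cluster, from Clec2h to Clec7a (128662385 to 129472779, 810 kb), holds 12 members. Of its 7 past the floor, none was higher and 4 were lower (57.1%, against 9.42% of all genes). Among these 4, Clec9a and Clec1a were past the floor through the control library alone, and Clec1b and Clec9a share exonic bases. The last 5 measured genes of this cluster, Clec12a, Clec1b, Clec9a, Clec1a and Clec7a, span 130 kb and were all below 0, from -3.77 to -0.94. Clec2d, the measured gene before them, stood at 0.45. Both runs of genes begin where the sign turns, so their shared sign is a description only.

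**Figure D4:**
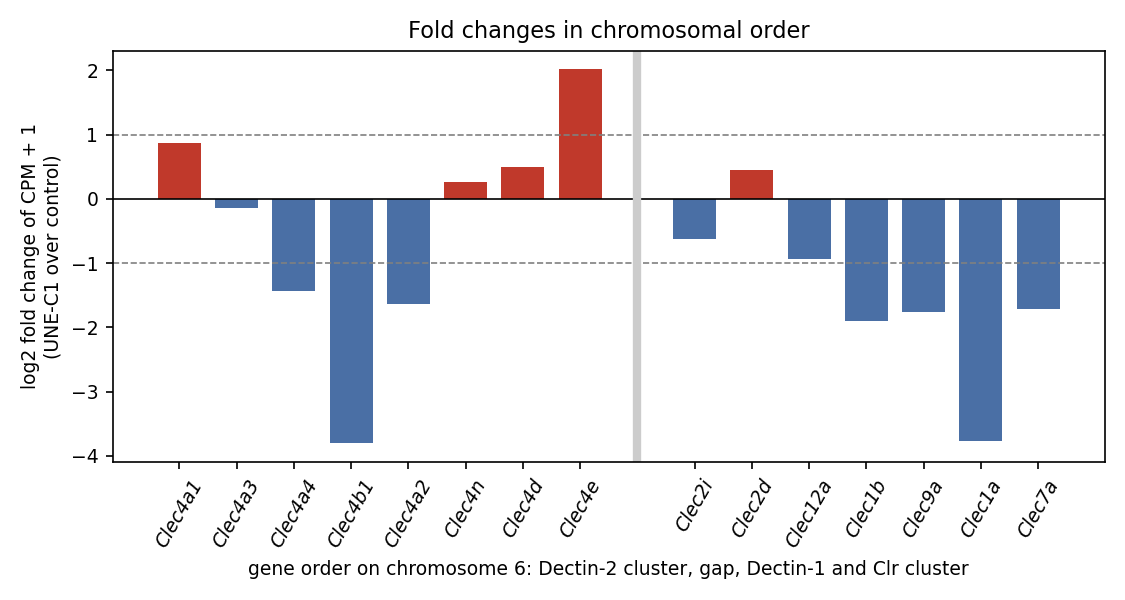
Bars give the log2 fold change of CPM + 1, UNE-C1 over control, of the members past the read floor in the 2 clusters of chromosome 6, in chromosomal order, with dashed lines at 2-fold. The bars at the right end of the first cluster, Clec4n to Clec4e, point up, and those from Clec12a to Clec7a point down, to -3.77 for Clec1a.

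Genes that carry the receptors' signals were called at shares near those of all genes. Of the 31 signalling genes past the floor, 4 were higher (12.9%, against 9.31% of all genes) and 2 lower (6.45%, against 9.42%). Their median log2 fold change of 0.29 turned to -0.053 with total read counts. Under total read counts 1 was higher and 3 lower, beside 657 higher and 1693 lower over all 10469 genes. Fcer1g, which encodes the FcRγ adaptor of Mincle and Dectin-2, had 2416 CPM in the UNE-C1 library and 1132 CPM in the control (2.13-fold higher, 2.10 to 2.17). Tyrobp, which encodes the adaptor DAP12, had 475 CPM in the UNE-C1 library and 803 CPM in the control (1.69-fold lower, 1.64 to 1.74). With total read counts the log2 fold changes of Fcer1g and Tyrobp were 0.75 and -1.10, so that Fcer1g was no longer counted and Tyrobp was.

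The kinase Syk was 1.66-fold higher (1.58 to 1.74). Card9 had 32 reads in the UNE-C1 library and 60 in the control, a log2 fold change of -0.49. Bcl10 stood at -0.53 and Malt1 at 0.31, and the phosphatase Ptpn6 at 0.05, of which Malt1 and Ptpn6 turned below 0 with total read counts. The largest differences of the list beside Fcer1g were those of the transcription factor Irf1 (2.70-fold higher, 2.57 to 2.83), the Src-family kinase Fgr (log2 fold change -1.14) and Nfatc2 (-1.12). Nfatc2, with 44 UNE-C1 and 132 control reads, was past the read floor through the control library alone, as was Card9.

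A list of 23 genes with a C-type lectin domain but another name was chosen, which does not hold every such gene. Among the 13 of them that were measured, 2 were higher (15.4%, against 9.31% of all genes). Of the same 13, 5 were lower (38.5%, against 9.42%), and the median was -0.21. The lower genes Asgr2, Colec12 and Klrd1 were past the read floor through the control library alone, and Cd69 through the UNE-C1 library alone. The early activation antigen Cd69 had 413 reads in the UNE-C1 library and 39 in the control (12.5-fold higher, 8.98 to 17.8). The mannose receptor Mrc1 had 80 UNE-C1 and 1291 control reads, a log2 fold change of -3.56. Cd93 stood at -2.09 and the natural killer receptor chain Klrd1, on 9 UNE-C1 and 76 control reads, at -1.76.

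Markers of further cells that such cultures can hold were counted in the same way, beside 9.31% of all genes higher and 9.42% lower. Of 12 monocyte and macrophage markers, 3 were higher and 5 lower (5043 CPM in the UNE-C1 library and 5159 CPM in the control). Of 7 mast cell, basophil and eosinophil markers, 3 were lower (804 UNE-C1 and 1226 control CPM). Among these 3, Kit, with 19 UNE-C1 and 74 control reads, was past the read floor through the control library alone. The plasmacytoid list had 1 of 4 higher (441 UNE-C1 and 133 control CPM). The higher gene was Bst2, with 301 UNE-C1 and 38.4 control CPM, while the list's defining marker Siglech had 0 UNE-C1 and 9 control reads. Both endothelial markers past the floor were higher (258 UNE-C1 and 15.2 control CPM), nearly all of it Kdr with 3513 UNE-C1 and 182 control reads, while Cdh5 had 7 UNE-C1 and 9 control reads. B cell markers summed to 94 UNE-C1 and 336 control reads, of which Cd22 alone had 89 UNE-C1 and 302 control reads, with Pax5 at 0 in both libraries, and T and natural killer cell markers to 33 UNE-C1 and 83 control reads, with Cd3e at 0 in both. The part of these cells in the values of the C-type lectin genes was not tested.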

How the data were processed

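The deposited values are raw read counts per gene symbol, judged from the values to carry no normalization. Per the labels' protocols, 500 ng of RNA went into each QuantSeq library, a kit that reads transcripts near the 3′ end. Bowtie2, edgeR and mm10 are named per the submitters' processing notes, without roles. Counter, annotation, strand setting and treatment of multiply mapped reads were not given in the sources used here.

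Repeated symbols (35, none of them a member) were summed. CPM used TMM effective library sizes (edgeR 4.0.16, R 4.3.3; factors 0.888 for UNE-C1 and 1.13 for the control). Level intervals are exact Poisson and ratio intervals exact conditional binomial (scipy 1.17.1). PCR copies cannot be told from separate molecules, so intervals and zero limits cover counting error only. The floor of 50 reads is 3.52 CPM in the UNE-C1 library and 2.99 CPM in the control. No p-value was computed. Recovery of known fold changes was tested on simulated data. Positions, exon overlaps and 3′-end words come from GENCODE M21 (GRCm38), promoters from RefSeq.

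Every member past the floor is named, with the 3 highest under it, up to 4 genes of each other list and fixed signalling genes. Mgl2, Cd209a, Xcr1, Irf8, Batf3, Flt3, Cd24a, Itgae, Itgax, Cd74, Cd22, Kdr, Siglech, Cdh5, Pax5 and Cd3e were chosen after their values were seen. So were Asgr2, Colec12, Elane, Mpo, Cxcr2, Zbtb46, Bst2 and Kit. The members and lists were chosen with earlier results of these data known. Of 13 neutrophil markers listed, 12 were found in the data, and Ly6g was the one without an entry. Alternatives were total read counts, DESeq2 1.42.0 size factors, other pseudocounts, other floors and totals without the ribosomal RNA gene Rn45s.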

Additional observations from a re-analysis of the deposited data

How the results depend on the processing

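The members counted as higher (1) stayed 1 under all 8 alternatives, and those counted as lower (8) ranged from 7 with a floor of 200 reads to 9 with total read counts. Over all genes, 579 of 7652 were lower with that floor and 1693 of 10469 with total read counts. The main setting gave 986 lower of 10469. A pseudocount of 5 CPM gave 724 higher and 484 lower over all 10469 genes. The members' median log2 fold change was -1.11 with total read counts, -0.34 with no floor (27 members) and -1.18 with a floor of 200 reads (14 members). Of 140 values of single members under the alternatives, 2 changed sign (Clec4n with total read counts and Clec16a with DESeq2 size factors) and 1 changed its 2-fold call (Clec12a with total read counts). For the signalling genes, total read counts gave 1 higher and a median of -0.053, a pseudocount of 5 CPM gave 2 higher and 1 lower, and a floor of 200 reads gave 1 lower. For the other C-type lectin domain genes, the median was -0.55 with total read counts, and the number lower was 2 with a pseudocount of 5 CPM, 2 with a floor of 200 reads and 3 with a mean of 50 reads over both libraries, an alternative chosen after seeing the data. A higher floor leaves fewer genes, and no floor adds members with few reads. Total read counts also moved the median of all genes, to -0.33. A larger pseudocount shrinks the log2 fold changes of genes with low CPM most. With 5 CPM, Clec9a moved from -1.75 to -1.06 and Clec7a from -1.71 to -1.70. No paired analysis was possible because each group has 1 library. Clec1a was lower than Clec4b1 with a pseudocount of 0.1 CPM (-6.32 against -4.02) and without Rn45s. Depth limits the members with fewest reads most: the Clec1a ratio rests on 1 read in the UNE-C1 library.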
